A study of Danio rerio with 6 samples.

Results

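The 10 genes described here encode transcription factors and cofactors of red blood cell formation: gata1a, zfpm1, klf1, klf17, tal1, lmo2, nfe2, gfi1aa, gfi1b and znfl2a. They were chosen by symbol, and all 10 were found, on 1 row each, among 35197 rows of a table of RNA sequencing counts. The table compares wildtype zebrafish embryos with homozygous dnajc21 mutants, 3 libraries each, at 48 hours post-fertilization; no embryo was treated. Each library came from RNA of 30 to 50 pooled whole embryos, whose clutches the labels do not describe, so p-values here describe the spread among 3 pools per group and may reflect technical variation. Casper, the name given to the wildtype columns, is a strain without most pigment. The labels give neither the background of the mutants nor the lesion. The Dnajc21 protein acts in late assembly of the large ribosomal subunit.

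Red cell formation in vertebrates rests on a small circuit of DNA-binding proteins. Gata1 binds GATA motifs at globin, heme and membrane genes, and works with Fog1 (the product of zfpm1), with a complex in which Lmo2 bridges Tal1 and Ldb1, and with Klf1, which binds CACC motifs. Gfi1 and Gfi1b are repressors that recruit the histone demethylase Lsd1, and Nfe2 pairs with small Maf proteins. In zebrafish embryos the first red cells arise in the intermediate cell mass and are in circulation by the age sampled here. Several of the 10 genes also act elsewhere: tal1 and lmo2 in endothelium, tal1 in interneurons, klf17 in the hatching gland, zfpm1 in the heart, gfi1b and nfe2 in thrombocytes, and mouse Gfi1 in hair cells.

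Levels are given in CPM, rounded expected counts relative to the TMM-scaled library total, with SD over 3 libraries, and have no correction for transcript length, so a higher CPM of one gene than of another is a larger share of reads and not a higher level. Totals ran from 8600951 to 11798543 counts. The edgeR quasi-likelihood test called 2372 of 20229 genes, 11.7%, at a Benjamini-Hochberg adjusted p under 0.05. The dnajc21 transcript itself was lower in mutants, at 16.9, 19.7 and 17.3 CPM against 22.6, 24.9 and 30.9 CPM (edgeR adjusted p = 0.00492 at a log2 fold change of -0.55).

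Of the 10 genes, 9 had enough counts to be tested and gfi1aa did not. One gene rose in mutants, znfl2a, and one fell, zfpm1, which is 1 gene in each direction against a background of 5.85% of all genes higher and 5.87% lower. The fitted log2 fold change was above 0 for 8 of the 9, against 49% of all genes tested, and the median was 0.40 against -0.01 over all genes. This median moved with single libraries, at 0.63, 0.18 and 0.32 without wildtype replicates 1, 2 and 3. Without mutant replicates 1, 2 and 3 it was 0.40, 0.50 and 0.29. In a fit without the low-count filter, gfi1aa came in with a negative value and the median of all 10 genes was 0.30. The mutant libraries lay above all wildtype libraries for 3 genes, znfl2a, gfi1b and klf17, and below them for zfpm1; over all genes tested these shares were 15.1% and 15.4%. In whole-embryo RNA, fewer red cells and less of a transcript per red cell cannot be told apart.

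**Figure D1:**
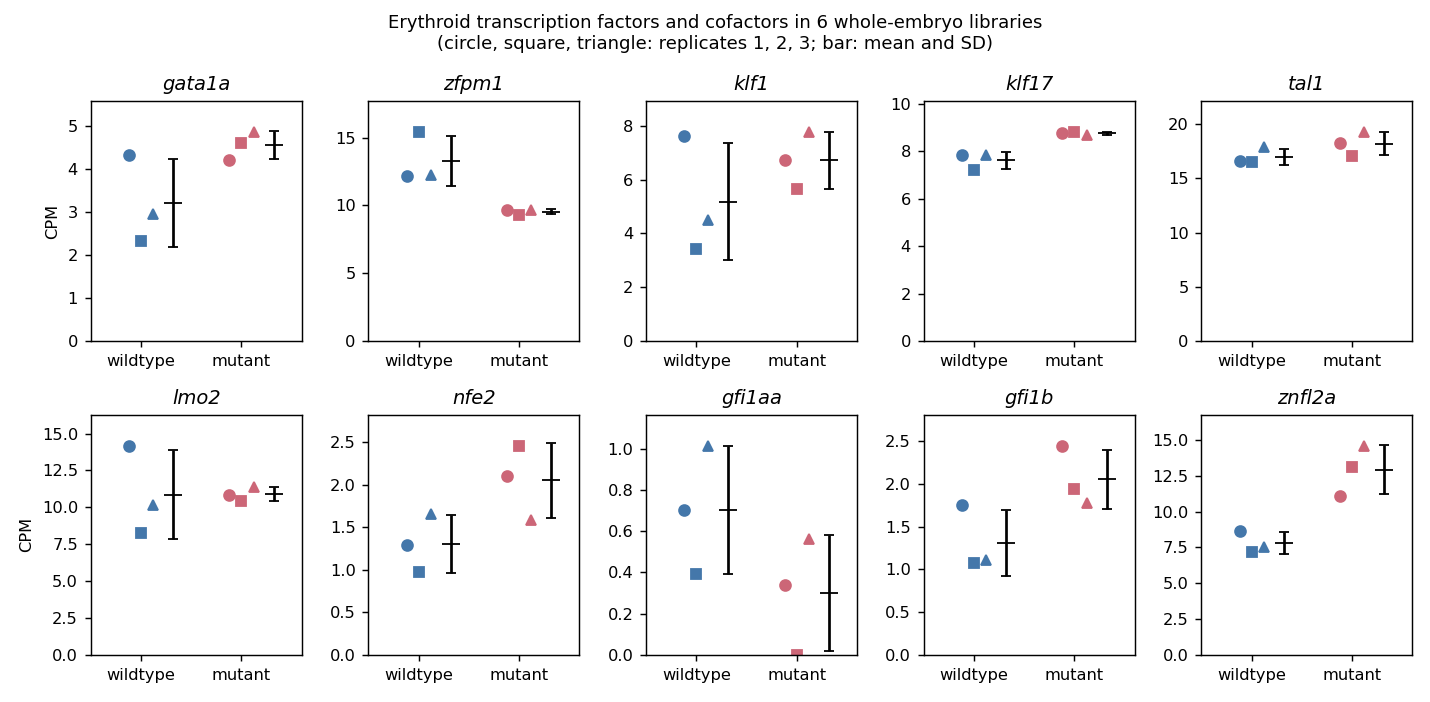
CPM of each of the 10 genes in the 3 wildtype (blue) and 3 mutant (red) libraries; symbols mark replicate numbers and black bars the mean and SD. The groups are apart for znfl2a, gfi1b, klf17 and zfpm1, and wildtype replicate 1 is the highest wildtype library for gata1a, klf1 and lmo2.

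The gene gata1a encodes the factor without which zebrafish embryos form no red cells. The wildtype libraries held 37, 24 and 32 of its counts and the mutants 50, 45 and 52, in order of replicate number, or 4.33, 2.34 and 2.95 CPM against 4.21, 4.61 and 4.86 CPM. All 3 mutant libraries were above the wildtype mean, and mutant replicate 1 lay just below wildtype replicate 1, so the groups overlapped. The means were 3.21 ± 1.02 and 4.56 ± 0.327 CPM, and the fitted log2 fold change was 0.52 (SE 0.23, 95% interval 0.03 to 1.02). The unadjusted p of 0.0378 became 0.165 after adjustment over all genes in edgeR, so gata1a was not called. Wildtype replicate 1 decided this: without it the log2 fold change was 0.78 and the gene was called (edgeR adjusted p = 0.0343), while the other 5 fits with 1 library left out gave 0.34 to 0.58 and no call.

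Fog1, encoded by zfpm1, binds the amino-terminal zinc finger of Gata1 and does not itself read DNA motifs. Its gene was the one called lower. It measured 12.2, 15.4 and 12.2 CPM in wildtype and 9.69, 9.32 and 9.63 CPM in mutant libraries, from 91 to 158 counts. Every mutant library was below every wildtype library, and the 3 mutants were close together. Counting error alone gives a coefficient of variation of 9.85% in mutants at these counts. The 2.11% seen over the 3 mutants is therefore no measure of precision. The means were 13.3 ± 1.84 and 9.54 ± 0.201 CPM, for a fitted log2 fold change of -0.48 (SE 0.13, 95% interval -0.75 to -0.20, edgeR adjusted p = 0.0245). The direction was kept in all 6 fits with 1 library left out, but the call was not: it ended without wildtype replicate 2 (-0.35, adjusted p = 0.111), without any 1 of the mutant libraries (0.0783 for mutant replicate 1 and 0.0823 for mutant replicate 3), and with DESeq2 (0.232).

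The partners gata1a and zfpm1 were also compared as a ratio, which cancels the library total. The ratio of gata1a to zfpm1 CPM was 0.356, 0.152 and 0.241 in wildtype and 0.435, 0.495 and 0.505 in mutant libraries, without overlap. On the log2 scale it was -2.09 ± 0.61 in wildtype and -1.07 ± 0.12 in mutants, a difference of 1.02. With 3 libraries against 3, a two-sided exact permutation test cannot go below p = 0.1, and it gave that value (0.4 adjusted over 4 pairs of partners). This comparison of pairs was chosen after the values were seen. The groups were already apart for zfpm1 alone, as for 30.5% of all genes tested in either direction. The share of gene pairs whose ratio does not overlap was not computed, so the ratio adds no separate evidence. The other 3 ratios overlapped between groups: gata1a to tal1 (difference 0.45, exact p = 0.3), tal1 to lmo2 (0.06, exact p = 1) and gata1a to klf1 (0.11, exact p = 0.6).

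**Figure D2:**
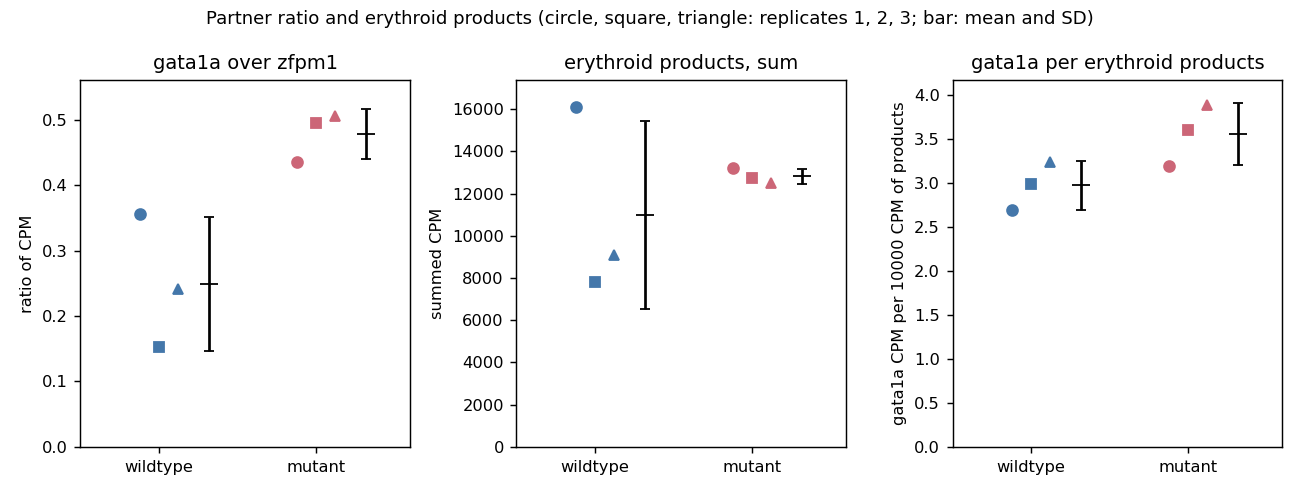
Left, the ratio of gata1a to zfpm1 CPM; middle, the summed CPM of 53 erythroid product genes (globins, heme synthesis, red cell membrane and iron uptake); right, gata1a CPM per 10000 CPM of these products, each by library with mean and SD. The ratio is 0.152 to 0.356 in wildtype and 0.435 to 0.505 in mutants, and the product sum is spread in wildtype only.

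The Krüppel-like factors klf1 and klf17 were next. Klf1 activates globin and red cell membrane genes in mammals. Its gene had 7.61, 3.41 and 4.51 CPM in wildtype and 6.74, 5.63 and 7.76 CPM in mutants. The wildtype libraries spanned more than the mutants, and the groups overlapped. The log2 fold change was 0.40 (SE 0.25, 95% interval -0.13 to 0.93, edgeR adjusted p = 0.335). As with gata1a, leaving out wildtype replicate 1 gave a call (0.76, adjusted p = 0.0230), and without wildtype replicate 2 the value was 0.18. The gene klf17, first described as a blood island factor, had 7.84, 7.21 and 7.83 CPM in wildtype and 8.76, 8.80 and 8.70 CPM in mutants. All mutants were above all wildtypes, by a small step. The fit gave 0.20 (SE 0.14, interval -0.09 to 0.49, edgeR adjusted p = 0.399), so klf17 was not called. At its counts, counting error alone gives a coefficient of variation of 11.5% in wildtype and 10.3% in mutants, so the 0.621% seen over the 3 mutants is no measure of its precision.

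Tal1, a basic helix-loop-helix factor, and the LIM-domain adaptor Lmo2 sit in one complex and are needed before Gata1 in blood formation. The gene tal1 measured 16.6, 16.5 and 17.9 CPM in wildtype and 18.3, 17.1 and 19.3 CPM in mutants. The log2 fold change was 0.10 (SE 0.10, edgeR adjusted p = 0.601), with the narrowest 95% interval of the 9 genes, -0.12 to 0.32, and the groups overlapped. The gene lmo2 had 14.2, 8.29 and 10.1 CPM in wildtype and 10.9, 10.4 and 11.4 CPM in mutants. Wildtype replicate 1 was above every other library and wildtype replicate 2 below. The log2 fold change was 0.02 (SE 0.16, interval -0.32 to 0.37, edgeR adjusted p = 0.954), and it ran from -0.14 without wildtype replicate 2 to 0.24 without wildtype replicate 1.

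Nfe2 and the Gfi1 family were measured on few counts. The gene nfe2, for the large subunit of a factor that acts in globin expression and platelet formation, had 1.29, 0.975 and 1.66 CPM in wildtype and 2.11, 2.46 and 1.59 CPM in mutants, on 10 to 25 counts. Mutant replicate 3 lay within the wildtype range. The log2 fold change was 0.64 (SE 0.34, interval -0.07 to 1.35, edgeR adjusted p = 0.255). The repressor gene gfi1b had 15, 11 and 12 counts in wildtype and 29, 19 and 19 in mutants, or 1.76, 1.07 and 1.11 CPM against 2.44, 1.95 and 1.78 CPM. The mutants lay above the wildtypes, the closest libraries being 1.76 and 1.78 CPM. The log2 fold change was 0.67 (SE 0.34, interval -0.03 to 1.38, edgeR adjusted p = 0.221). For both genes the interval holds 0 and a log2 change of 1, so at this depth the fit does not tell these values apart.

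The paralogue gfi1aa, which with gfi1b paces the differentiation of primitive red cells in zebrafish, had 6, 4 and 11 counts in wildtype and 4, 0 and 6 in mutants. In all, 21 wildtype counts stood against 10 mutant counts, the opposite direction to gfi1b, and the groups overlapped (0.702 ± 0.312 and 0.299 ± 0.282 CPM, two-sided exact permutation p = 0.2). The count of 0 in mutant replicate 2 allows up to 3 counts, or 0.307 CPM, counting error only. Tested without a low-count filter, gfi1aa gave a log2 fold change of -1.17 (SE 0.75, edgeR adjusted p = 0.415).

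The zinc finger gene znfl2a showed the largest fitted change of the 9 genes tested. It had 8.66, 7.21 and 7.55 CPM in wildtype and 11.1, 13.1 and 14.6 CPM in mutants. The lowest mutant stood above the highest wildtype library. The means were 7.81 ± 0.756 and 12.9 ± 1.74 CPM, for a fitted log2 fold change of 0.73 (SE 0.14, 95% interval 0.43 to 1.03, edgeR adjusted p = 0.00247). The call held in all 6 fits with 1 library left out (0.64 to 0.84, adjusted p up to 0.0257) and in the other 10 settings in which its row was kept. Its counts were not whole in 3 libraries (73.92, 74.48 and 155.94), which marks reads shared with another row, and no single row was found that completed them to whole numbers in every library. The value of znfl2a is uncertain to that extent. The row of nfe2 had non-whole counts in 2 libraries (11.14 and 18.01), and the other 8 genes had whole counts throughout.

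**Figure D3:**
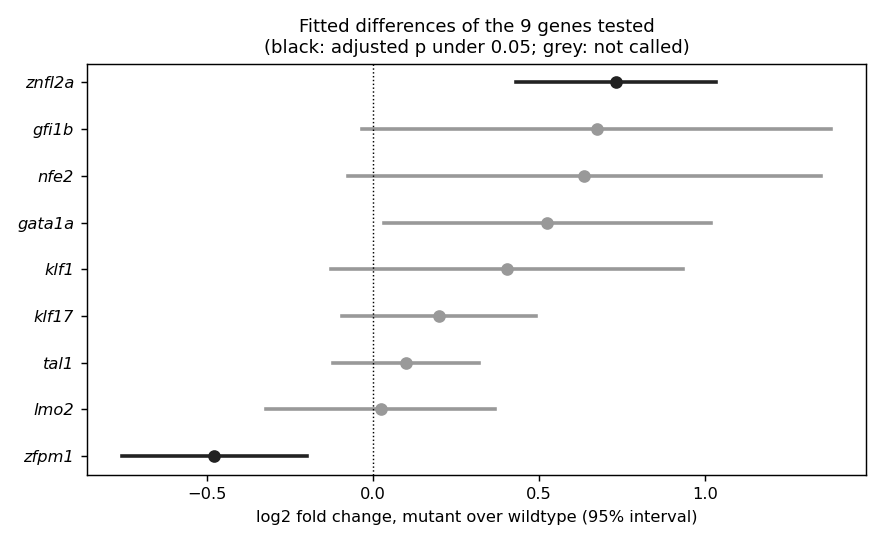
Log2 fold change, mutant over wildtype, of the 9 genes tested, with 95% intervals from the edgeR fit. The intervals of zfpm1 (-0.75 to -0.20) and znfl2a (0.43 to 1.03) are drawn black for called genes; that of tal1 (-0.12 to 0.32) is the narrowest.

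The wildtype libraries differed from each other in erythroid genes, though not in these alone, and the 10 genes divided in how far they took part. Wildtype replicate 1 exceeded the mean of wildtype replicates 2 and 3 by 1.07 on the log2 scale in the median of 9 embryonic globins, 0.31 in 16 heme synthesis genes and 0.20 in 27 genes of the red cell membrane, iron uptake and other erythroid products, against 0.003 over all genes. The median was also 0.29 in 9 neutrophil markers, all of them positive, and 0.21 in 8 thrombocyte markers with gfi1b counted. Medians of the other marker lists ran from -0.10 (heart muscle) to 0.12 (hatching gland). Among the factors, klf1 (0.87), gata1a (0.63), lmo2 (0.60) and gfi1b (0.51) were higher in that library, and only 4.34% of all genes tested exceeded 0.5. The difference was 0.22 for znfl2a, 0.06 for klf17, 0.003 for nfe2, -0.04 for tal1 and -0.17 for zfpm1. These are differences of log2(CPM + 0.5) in 1 library, with no test. The spread of klf1 over the wildtype libraries, a coefficient of variation of 42.0%, exceeded the 14.2% expected from counting. So did that of lmo2 (27.7% against 9.74%) and gata1a (31.8% against 18.0%). That of gfi1b, on 11 to 15 counts, was 29.4% against 28.1%, so its difference is not set apart from counting error. In mutants klf1, lmo2 and gata1a varied by 15.9%, 4.44% and 7.18%, against 11.7%, 9.22% and 14.3% from counting.

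**Figure D4:**
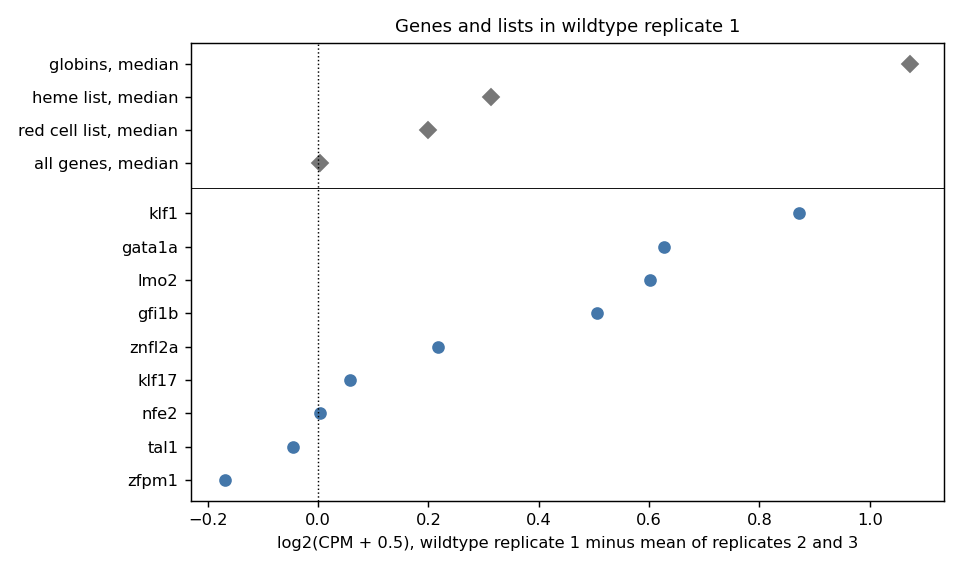
Difference in log2(CPM + 0.5) between wildtype replicate 1 and the mean of wildtype replicates 2 and 3, for the 9 genes tested (blue) and as list medians (grey). The genes klf1, gata1a, lmo2 and gfi1b lie between 0.51 and 0.87, towards the globin median of 1.07. The wildtype spread of gfi1b was near that from counting. The other 5 genes lie at 0.22 or less.

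The factors were also set against the genes listed as erythroid products. The summed level of 53 globin, heme and red cell genes was 16084, 7821 and 9078 CPM in wildtype and 13200, 12756 and 12488 CPM in mutants. The mutants lay between wildtype replicate 1 and wildtype replicates 2 and 3 (log2 difference 0.29, two-sided exact permutation p = 0.4). The difference was 0.60 without wildtype replicate 1 and 0.08 without wildtype replicate 2. Globins held most of this sum, 8615 of 10994 CPM in the wildtype mean, so it and the relative levels below follow globins above all. The red cell list alone had 2313, 1855 and 1989 CPM in wildtype and 2464, 2473 and 2462 CPM in mutants. These sums did not overlap (exact p = 0.1, the smallest possible), while the globin sums and the heme sums did. The sums of thrombocyte, endothelial, macrophage, heart muscle and hair cell markers did not overlap either, so this was not particular to the red cell list. The gene fth1a held the largest part of the red cell sum, with means of 562 CPM in wildtype and 742 CPM in mutants. How much of this sum came from red cells was not tested. Per 10000 CPM of the 53 products, gata1a measured 2.69, 2.99 and 3.25 CPM in wildtype and 3.19, 3.61 and 3.89 CPM in mutants. The difference of group means of this log2 ratio was 0.26 (exact p = 0.2). The 0.52 given above for gata1a is the edgeR fitted fold change, another measure. For klf1 the difference of the log2 ratio was 0.15 (exact p = 0.4). The relative level of gfi1b was the only one without overlap, at 1.09, 1.37 and 1.22 against 1.85, 1.52 and 1.42 CPM per 10000 (0.38, exact p = 0.1, the smallest possible). It rests on 11 to 29 counts per library, and the share of all genes without overlap in such a ratio was not computed. Relative levels of znfl2a (0.43), nfe2 (0.37), klf17 (-0.09), tal1 (-0.19), lmo2 (-0.25) and zfpm1 (-0.76) overlapped between groups. For zfpm1, wildtype replicate 1 held 7.57 CPM of zfpm1 per 10000, against 19.7 and 13.5 in the other wildtypes and 7.30 to 7.71 in mutants.

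**Figure D5:**
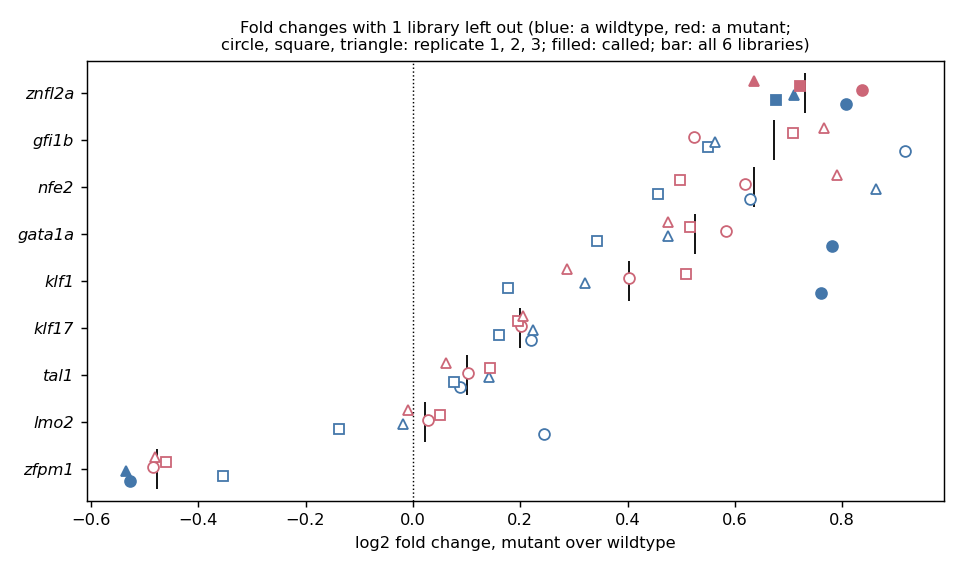
Log2 fold change of the 9 genes tested with each library left out in turn (blue, a wildtype; red, a mutant; filled where called) and with all 6 (bar). Leaving out wildtype replicate 1 moves gata1a to 0.78 and klf1 to 0.76, both called, and zfpm1 keeps its call in 2 of 6 fits.

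Likeness of profiles was measured as the root mean square difference of log2(CPM + 0.5) over the 6 libraries, each gene centred on its own mean, among up to 9968 named genes whose mean reached 10 CPM. Nearest to gata1a were selenoj (0.08), the embryonic globin gene hbbe3 (0.09) and terfa (0.09); gata1a itself varied by 0.33. Nearest to klf1 were soat2 (0.10), for a sterol acyltransferase, ddb2 (0.11), for a DNA damage binding protein, and hemgn (0.12), for the red cell nuclear protein hemogen. Of the 100 genes nearest to each factor, erythroid products made up 14 for klf1, 9 for gata1a, 5 each for lmo2 and gfi1b, 1 each for nfe2 and znfl2a, and none for tal1, klf17 and zfpm1, where such products were 0.391% of the genes compared. These products share the libraries and the wildtype spread with the factors, so this is a description. Nearest to zfpm1 were snap25b (0.05), for a synaptic vesicle fusion protein, nop10 (0.06), for a box H/ACA particle protein, and poglut1 (0.06); nearest to znfl2a was the Notch target her4.1 (0.06). Nearest to tal1 were spint2, mtdha and tpm4a (each 0.02), nearest to lmo2 tfdp1b, tlcd2 and rbp4 (0.06 to 0.07), and nearest to gfi1b slc25a32a, klf2a and mylipb (0.09 to 0.10).

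Genes for proteins that work with these factors gave 1 call. Of 63 partner and corepressor genes tested, 1 was called higher and none lower, where 5.85% and 5.87% of all genes tested were. Among the 63 were ldb1a, the Lsd1 gene kdm1a and the subunits of the NuRD and Paf1 complexes. At an unadjusted p under 0.05, 7 were higher and 5 lower, where 5160 of all 20229 genes had such a p. The called gene was the histone acetyltransferase gene ep300b (130 ± 3.50 and 151 ± 10.9 CPM, edgeR adjusted p = 0.0437 at a log2 fold change of 0.22). Leaving out wildtype replicate 2 (0.0944), wildtype replicate 3 (0.0600), mutant replicate 2 (0.153) or mutant replicate 3 (0.237) ended this call, as did DESeq2 (0.0673), limma-voom (0.0579), scaling by library totals alone and a fit without robust weights. The median of these genes was 0.003, and the largest mean in the list belonged to the deacetylase gene hdac1 (-0.06, adjusted p = 0.543). The Lmo2-binding adaptor gene ldb1a stood at 155 ± 7.42 and 155 ± 0.536 CPM, and cbfa2t3, for a corepressor of the Tal1 complex, at 87.2 ± 6.46 and 79.5 ± 3.94 CPM (adjusted p = 0.268); ldb1a and cbfa2t3 were named after their values were seen.

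Among relatives of the factors in their gene families, 3 of 31 tested were higher and 2 lower, where 5.85% and 5.87% of all genes tested were. All 5 were Krüppel-like factor genes, the family to which most of the 31 belong. The gene klf9 rose from 9.84 ± 2.39 to 17.0 ± 2.60 CPM (edgeR adjusted p = 0.00523 at a log2 fold change of 0.79), and this call held with any 1 library left out and with DESeq2 (0.00927). The blood flow-responsive gene klf2a rose from 14.5 ± 2.54 to 20.4 ± 1.17 CPM (0.50, adjusted p = 0.0112), and its paralogue klf2b fell from 19.7 ± 2.96 to 14.4 ± 1.06 CPM (-0.46, adjusted p = 0.0195). The call of klf2a ended without mutant replicate 1 (0.0697), and klf2b kept its own with wildtype replicate 1 left out and lost it without each of the other 5 libraries (0.0506 to 0.112). The gene klf6a rose (0.25, adjusted p = 0.0301) and klf13 fell (-0.26, adjusted p = 0.0411, a row with non-whole counts in all 6 libraries). The klf6a and klf13 calls were lost without wildtype replicate 2 or any 1 mutant (adjusted p up to 0.130 and 0.194), and that of klf13 also without wildtype replicate 3 (0.109). DESeq2 called none of klf2a (0.0854), klf2b (0.147), klf6a (0.0752) and klf13 (0.173), and limma-voom did not call klf13 (0.0600). Of the GATA genes, gata2a stood at 32.1 ± 1.37 and 32.4 ± 2.12 CPM and gata3 at 58.3 ± 5.07 and 54.1 ± 2.87 CPM, neither called, and the third gfi1 paralogue, gfi1ab, at 3.61 ± 0.961 and 2.44 ± 0.609 CPM (-0.54, adjusted p = 0.223); these 3 were named after their values were seen.

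The red cell list, which also holds genes expressed outside red cells, gave 5 genes higher of 27 and 0 lower, against 5.85% and 5.87% of all genes tested. The median log2 fold change of this list was 0.27. Mutants held 60.4 ± 5.38 CPM of the transferrin receptor gene tfr1a, against 46.7 ± 1.80 CPM in wildtype (edgeR adjusted p = 0.00537). Its paralogue tfr1b rose from 33.2 ± 0.674 to 42.6 ± 1.18 CPM (adjusted p = 0.00365). The ferritin heavy chain gene fth1a, which had the highest mean in this list, went from 562 ± 80.7 to 742 ± 18.4 CPM (adjusted p = 0.00687). The calls of tfr1a, tfr1b and fth1a held with any 1 library left out. That of sptb, for a spectrin (log2 fold change 0.33, adjusted p = 0.00621), was lost without mutant replicate 2 (0.0522). The count of 5 became 11 without wildtype replicate 1 and 3 without mutant replicate 2. In wildtype replicates 1, 2 and 3, tfr1a had 47.6, 44.6 and 47.9 CPM, tfr1b 33.4, 33.7 and 32.4 CPM and sptb 65.1, 75.6 and 71.9 CPM. Wildtype replicate 1, the highest in globins, was thus not the highest for these. It was the highest wildtype library for fth1a (654, 501 and 532 CPM) and for the remaining called gene. How far these rises came from red cells was not tested. In the heme list, 2 of 16 were lower, against 5.87% of all genes tested, none was higher and the median was -0.04. The count of 2 became 0 with RLE or upper quartile factors, with library totals alone, without robust weights, with DESeq2 and with limma-voom, while 3 were higher without wildtype replicate 1 and 1 with limma-voom or without robust weights. The gene alas2, for the first enzyme of heme synthesis in red cells, had the largest change of the list, at 69.5 and 118 CPM (log2 fold change 0.77, edgeR adjusted p = 0.241). For alas2 all mutants lay above all wildtypes, as they did for 15.1% of all genes tested. It was named after its values were seen. The gene cpox, for coproporphyrinogen oxidase of heme synthesis, fell from 16.4 ± 1.63 to 12.4 ± 1.75 CPM (edgeR adjusted p = 0.0496). Its call held with wildtype replicate 1 left out and was lost without any 1 of the other 5 libraries (adjusted p up to 0.254), with DESeq2 (0.315) and with limma-voom (0.0655). None of the 9 globin rows was called by edgeR, none had an unadjusted p under 0.05 and DESeq2 called none, while limma-voom called 2 higher, as did edgeR without robust weights, and edgeR called 7 without wildtype replicate 1 and 1 without wildtype replicate 2.

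Markers of other cells that use these factors were measured beside them, by summed CPM and, for called genes, the edgeR adjusted p. Over all genes tested, edgeR called 5.85% higher and 5.87% lower. The 10 thrombocyte markers besides gfi1b summed to 193 to 204 CPM in wildtype and 280 to 296 CPM in mutants, with 2 genes higher. The thrombospondin gene thbs1b held most of the reads of this sum and rose in mutants (log2 fold change 0.65, adjusted p = 3.7e-06). With gfi1b counted, 7 of 8 thrombocyte markers tested had a log2 fold change above 0, against 49% of all genes tested. For 6 of the 8 every mutant lay above every wildtype library, against 15.1% of all genes tested. Among these 6, gp1bb (0.62, adjusted p = 0.0542), gp9 (1.16, adjusted p = 0.0593) and itgb3b (0.36, adjusted p = 0.0956) were not called. These 3 were named after their values were seen. Of the other defining markers, itga2b was at 0 in all 6 libraries and mpl, after rounding, in 5. The 14 endothelial markers summed to 236 to 245 CPM in wildtype and 263 to 265 CPM in mutants; edgeR called none of them, 3 of 14 had an unadjusted p under 0.05, a share close to the 5160 of 20229 over all genes, and neither DESeq2 nor limma-voom called any. The 13 heart muscle markers summed to 1371 to 1405 CPM and 1481 to 1650 CPM, with 3 higher, beside the lower zfpm1. The cardiac actin gene actc1a held most of these reads, at 1185 and 1345 CPM (adjusted p = 0.0442). In wildtype myl7 had 33.4 CPM and myh7 34.6 CPM, so this sum follows actc1a, and its part from the heart was not tested. The call of actc1a was lost without wildtype replicate 2, wildtype replicate 3 (0.130), mutant replicate 2 (0.256) or mutant replicate 3 (0.134). It was also lost with the replicate number as a block (0.0748) and with limma-voom (0.0518). The count of 3 heart genes became 0 without mutant replicate 2 and 1 without wildtype replicate 3, without mutant replicate 3 or with DESeq2. The 12 hair cell markers summed to 411 to 450 CPM in wildtype and 284 to 324 CPM in mutants, with 3 of 10 tested lower and 1 higher, beside gfi1aa; the parvalbumin gene pvalb9 held most of the reads and fell from 334 ± 22.7 to 212 ± 19.8 CPM (-0.66, adjusted p = 1.3e-05). The 3 lower hair cell genes became 2 with mutant replicate 2 left out, and 1 with mutant replicate 3 left out or with DESeq2. The sums of 8 hatching gland markers (709 to 878 and 811 to 854 CPM) and of 14 interneuron markers (465 to 500 and 445 to 468 CPM) overlapped between groups, with 1 gene higher and 1 lower in each. The hatching gland sum joins opposite changes. In it ctslb, a row with non-whole counts in all 6 libraries, rose from 69.6 ± 16.8 to 207 ± 10.4 CPM (1.57, adjusted p = 0.00678). The gene agr2 fell from 84.8 ± 6.23 to 64.6 ± 1.18 CPM (-0.39, adjusted p = 0.00159). Summed stem and progenitor markers had means of 474 and 475 CPM (1 of 17 higher), neutrophil markers 260 and 265 CPM (2 of 9 higher, 1 lower) and macrophage markers 64.0 and 77.9 CPM (1 of 11 higher, 2 lower). The macrophage sums did not overlap, at 62.7 to 65.9 CPM in wildtype and 72.9 to 81.5 CPM in mutants. In this list mfap4 was higher (0.91, adjusted p = 0.00181), and lgals9l1 (-1.08, adjusted p = 0.0159) and marco (-0.92, adjusted p = 0.0432) were lower. The rows of mfap4 and lgals9l1 had non-whole counts in all 6 libraries. In the neutrophil list nccrp1 (0.42, adjusted p = 0.00897) and cpa5 (0.56, adjusted p = 0.0358) were higher and mpx was lower (-0.45, adjusted p = 0.00673). The call of mpx held with any 1 library left out and was lost with DESeq2 (0.0643). Leaving out 1 library gave 0 to 2 genes of the neutrophil list higher, with 2 kept without wildtype replicate 1 alone and 0 left without mutant replicate 1. It gave 0 macrophage genes lower without mutant replicate 1 or 2 and 1 without any 1 of the others. The part of these cells in the values of the factors was not tested.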

How the data were processed

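Per the labels' protocols, RNA with an integrity number of at least 8 was enriched for poly-A from 2 µg of total RNA. STAR, RSEM, DESeq2 and genome build danRer11 are named in the submitters' processing notes; versions and annotation are not given in the sources used here. The authors deposited RSEM expected counts per gene, not normalized between libraries. After rounding they went into edgeR 4.0.16 under R 4.3.3 (filterByExpr with a minimum count of 10, TMM factors, robust quasi-likelihood fit), adjusted over 20229 genes. Standard errors are the absolute log2 fold change over the square root of F. The common biological coefficient of variation was 10.3%. Columns were assigned by genotype and number in the header. Precision is limited by counts of 0 to 217 per library for the 10 genes, and a count of 0 allows 3 counts (0.253 to 0.351 CPM). Whether counting used strand is not stated. The fit was also run on simulated counts in which every gene had the common coefficient of variation. Genes that vary more between libraries, such as klf1, are not covered by that simulation. Alternatives were DESeq2 1.42.0, limma-voom (limma 3.58.1), other scalings and filters, a replicate block and leaving out each library. The members and lists were chosen with earlier results of these data known. Named are dnajc21, the 10 genes, up to 4 called genes and the highest mean of each list, and the 3 nearest profiles of each gene; exceptions are stated, some that the rule allows are left out, and 1 called gene of the heme list is not reported here. All 10 symbols were found in a RefSeq gene table of another assembly, used for names alone, so no coordinates are given. Permutation tests used scipy 1.17.1, and figures matplotlib 3.10.9.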

Additional observations from a re-analysis of the deposited data

How the results depend on the processing

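Across scalings, filters and fits the direction of the 9 genes tested did not change, and the fold changes moved little except when a library was left out. With 1 library left out, genes called over the whole table numbered 1242 to 2658, factors called higher 1 to 3, factors called lower 0 to 1, and genes called over all other lists 18 to 55, against 2372, 1, 1 and 33. The value of lmo2 reached 0.24 without wildtype replicate 1, and its sign turned without wildtype replicate 2 (-0.14), wildtype replicate 3 (-0.02) and mutant replicate 3 (-0.01). DESeq2, with its own filtering, called 1220 genes, 1115 of them among the 2372, with 0 factors lower and 16 genes over the other lists. Without rows with shared reads, 0 factors were called higher, since znfl2a is such a row. With the replicate number as a block, 2470 genes were called, and znfl2a (0.73) and zfpm1 (-0.47) kept their calls. The labels do not say whether the numbers pair the samples. Same-numbered libraries deviated with correlations of -0.04, -0.004 and 0.02. Over all pairs of a wildtype and a mutant library the correlations ran from -0.07 to 0.07. Values this small do not decide whether samples were collected or processed in pairs. The dnajc21 call held in every setting. Red cell genes called higher numbered 5 to 8 under settings that kept all libraries, heme genes lower 0 to 2 and relatives lower 0 to 2. Depth limits gfi1aa, gfi1b and nfe2 most.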
